A study of Mus musculus with 16 samples.

Results

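The scavenger and endocytic receptors of the liver sinusoid are described here by 9 genes, Stab1, Stab2, Mrc1, Msr1, Lyve1, Fcgr2b, Clec4g, Scarf1 and Scarb1. They were taken by symbol, by a rule that uses no measured value but was set with earlier results of these data known, and all 9 were found among the 47729 genes counted. All 9 had more than 3 reads in each of the 16 libraries, with a lowest level of 1.89 CPM (the read count of a gene scaled to all reads on genes of its library) for Lyve1 in a hepatocyte library.

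RNA was sequenced from endothelial cells (ECs), Kupffer cells, hepatic stellate cells (HSCs) and hepatocytes of unchallenged livers of adult mice, with 2 libraries a genotype label in every cell type. Libraries labelled KO came from mice with Zeb2 exon 7 flanked by loxP sites, on an R26R reporter background, and with the inducible Cdh5-CreERT2 driver, which is meant to act in ECs. Libraries labelled WT came from littermates without Cre, and both genotypes received tamoxifen at 2 mg per day on 5 days in a row. By default the study used 8-week-old males and measured mRNA 2 weeks after the last injection. Hepatocytes were separated by centrifugation, and the rest was sorted by UV signal for HSCs, by a macrophage surface antigen for Kupffer cells and by a pan-endothelial antibody for ECs. Since all 4 were isolated from one suspension, a liver may have given several of the libraries. The labels do not state which libraries came from separate mice, so that p-values measure the spread between these samples.

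Between 12872706 and 15690506 reads per library fell on genes, with a median of 14806833, and 3 counts corresponded to 0.191 to 0.233 CPM. Zeb2 had 106 and 106 CPM in the WT EC libraries and 199 and 130 in those labelled KO. The count of the whole gene thus did not fall with the label, and as the floxed part is 1 exon, reads from the other exons do not test its deletion. The genotypes are therefore given as labels throughout. The study itself reported efficient deletion in ECs, at the mRNA level and by the share of recombined cells. The EC and Kupffer cell markers fitted the labels of these cell types. The 10 Kupffer cell markers had medians of 0.986% to 2.45% of their Kupffer cell level in EC libraries. The 10 EC markers had medians of 1.82% to 4.81% of their EC level in Kupffer cell libraries. For 10 hepatocyte markers the medians were 1.74% to 22.5% of their hepatocyte level in EC libraries and 5.13% to 10.2% in Kupffer cell libraries. Of the EC markers, Cdh5, an endothelial cadherin whose promoter drives the Cre here, stood apart, with 147 to 172 CPM in Kupffer cell libraries against 165 to 234 CPM in ECs. Hepatocyte RNA differed between the EC labels. The 857 hepatocyte-enriched genes, none of which is a member, took 6.92% and 13.1% of reads in the WT EC libraries and 2.51% and 1.92% in those labelled KO.

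Liver sinusoidal ECs (LSECs) and Kupffer cells clear waste from the blood that passes the sinusoid. LSECs take up soluble macromolecules and small immune complexes by clathrin-mediated endocytosis, and Kupffer cells take up larger particles by phagocytosis. Receptors on the cell surface bind the cargo, the coat and its adaptors form the vesicle, and hydrolases in lysosomes degrade what was taken up. Stab1 and Stab2 are stabilins, large receptors with many EGF-like and fasciclin domains. Mrc1 (mannose receptor) and Clec4g (LSECtin) are C-type lectins. Lyve1 is a receptor for hyaluronan, and Stab2 binds it as well. Msr1 (scavenger receptor A), Scarf1 and Scarb1 (SR-B1) bind modified lipoproteins among other ligands, and Scarb1 also takes up cholesterol from high density lipoprotein. Fcgr2b, the inhibitory Fc receptor for IgG, takes up small immune complexes in LSECs.

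The 9 genes together held 1.75% to 2.50% of all reads on genes in EC libraries and 0.269% to 0.315% in Kupffer cell libraries. Their share was 0.0412% to 0.0857% in HSC libraries and 0.0333% to 0.0497% in hepatocyte libraries. The 4 cell types did not overlap in this sum except HSCs with hepatocytes. In bulk samples such as these, fewer cells of a type and less RNA per cell cannot be told apart.

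**Figure D1:**
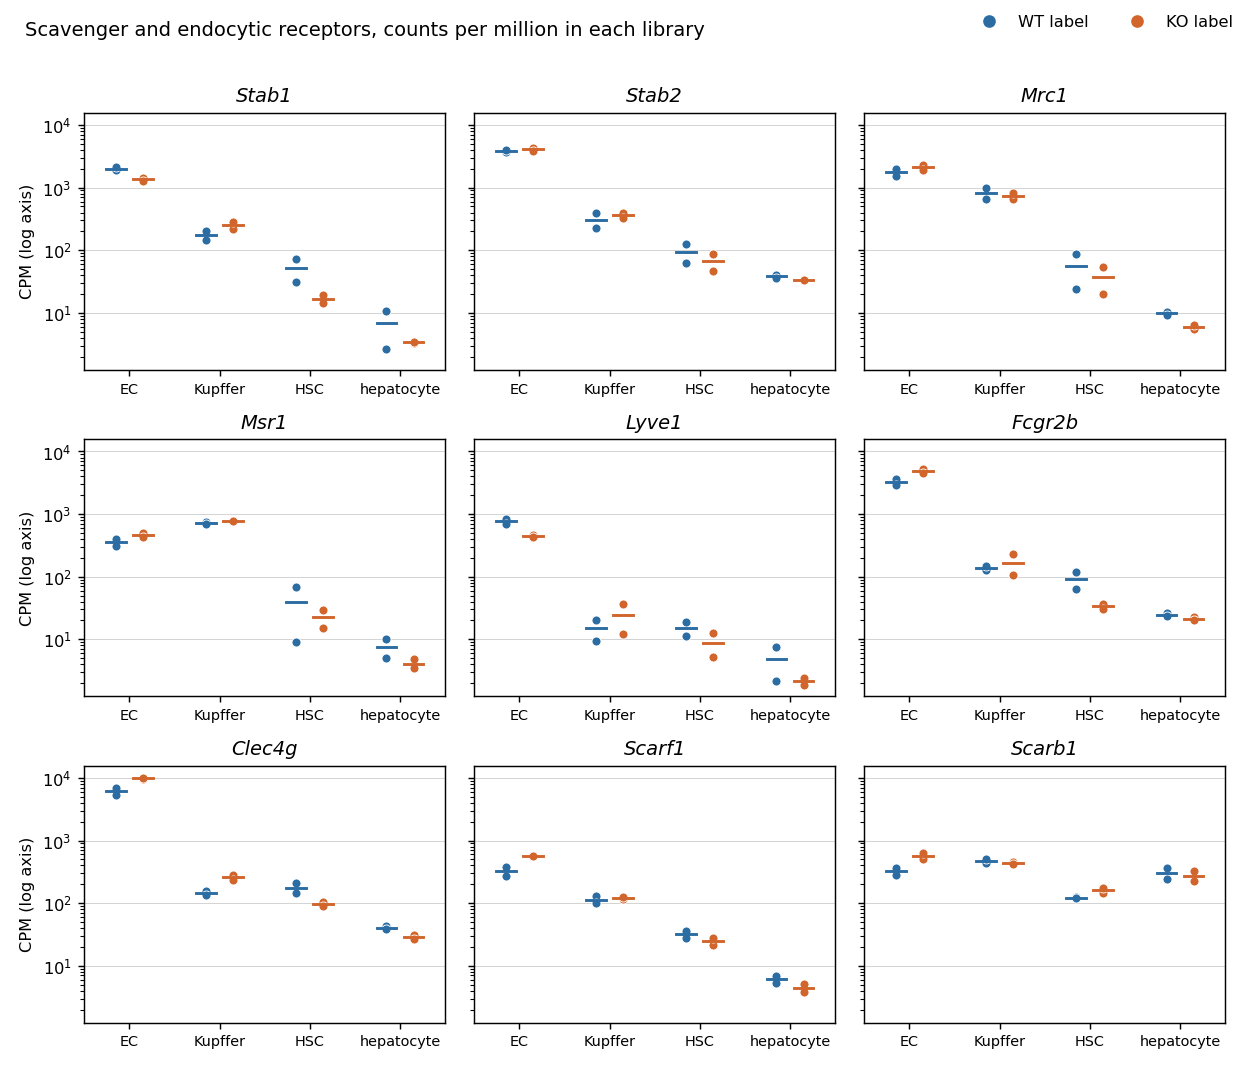
CPM of each receptor (log axis) in all 16 libraries, by cell type, with WT labels in blue, KO labels in orange and lines at the means of 2 libraries. In 7 of the 9 panels the EC libraries are the highest, Msr1 is highest in Kupffer cell libraries, and Scarb1 lies between 119.6 and 633 CPM in all 4 cell types.

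Both stabilins were highest in ECs. In the EC libraries the ratio of their reads differed between the labels, a ratio chosen with the estimates known and not tested. Stab1 (ENSMUSG00000042286, GRCm38 chromosome 14, 31139013 to 31168641, reverse strand, 58 exons in the union of its transcripts) had 1909 and 2127 CPM in the WT EC libraries and 1435 and 1273 in those labelled KO. Its Kupffer cell libraries had 147 to 285 CPM, the 2 higher ones under the KO label, with overlap after normalization. HSC libraries reached 14.4 to 73.4 CPM and hepatocyte libraries 2.66 to 10.9 CPM. The 4 cell types did not overlap for Stab1, with ECs above Kupffer cells, HSCs and hepatocytes in that order, and each step passed the test.

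Stab2 (ENSMUSG00000035459, chromosome 10, 86841198 to 87008025, reverse strand, 72 exons) had 3743 and 3988 CPM in the WT EC libraries and 4368 and 3913 in those labelled KO. These overlapped in CPM, but not after normalization. In Kupffer cell libraries it had 222 and 388 CPM under the WT label and 392 and 332 under the KO label. It had 47.0 to 126 CPM in HSC libraries and 33.0 to 40.6 CPM in hepatocyte libraries, and HSCs and hepatocytes did not pass the test against each other (log2 fold change 0.05, standard error (SE) 0.27, adjusted p = 0.926).

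The 250 bases before the start sites of both stabilins are shown because reads of these paralogs stood in different ratios under the EC labels. Those of Mrc1 and Clec4g are shown because, of the members with a sequence, they had the highest and the lowest share of their EC level in Kupffer cells. Sequences are those of RefSeq on GRCm38.p6, which matched 5 of the 9 members. Capitals mark matches on either strand, a match on the opposite strand being printed as its reverse complement. The E-box that Zeb factors bind was searched as CACCTG. An ETS motif of the PU.1 type was searched as GAGGAA, the TATA box as TATAAA and a GATA motif as AGATAA. The search covered 300 bases from 250 before to 50 after the start, and no match overlapped another.
Stab1, chr14:31168642-31168891, strand −: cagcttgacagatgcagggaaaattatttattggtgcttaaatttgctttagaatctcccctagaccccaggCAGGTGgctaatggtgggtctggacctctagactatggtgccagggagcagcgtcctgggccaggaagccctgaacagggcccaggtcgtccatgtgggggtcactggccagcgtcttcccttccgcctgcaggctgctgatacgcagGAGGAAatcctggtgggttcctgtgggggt
Stab2, chr10:87007943-87008192, strand −: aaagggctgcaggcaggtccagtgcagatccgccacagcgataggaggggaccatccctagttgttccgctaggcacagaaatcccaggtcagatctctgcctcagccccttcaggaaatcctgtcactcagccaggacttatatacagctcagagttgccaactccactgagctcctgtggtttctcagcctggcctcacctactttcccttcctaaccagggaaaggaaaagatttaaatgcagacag
Mrc1, chr2:14229164-14229413, strand +: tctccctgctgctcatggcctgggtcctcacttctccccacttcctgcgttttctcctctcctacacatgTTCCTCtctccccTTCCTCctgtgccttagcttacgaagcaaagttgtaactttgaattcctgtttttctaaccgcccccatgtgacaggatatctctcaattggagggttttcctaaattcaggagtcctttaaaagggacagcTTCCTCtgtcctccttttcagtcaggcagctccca
Clec4g, chr8:3720652-3720901, strand −: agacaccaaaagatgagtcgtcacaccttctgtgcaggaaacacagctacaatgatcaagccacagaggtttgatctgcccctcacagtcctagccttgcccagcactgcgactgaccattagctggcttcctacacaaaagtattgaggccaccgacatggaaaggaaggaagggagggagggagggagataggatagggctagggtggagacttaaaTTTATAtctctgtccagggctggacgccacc
The Stab1 window held CACCTG once, on the opposite strand with its first base 178 bases before the start, and GAGGAA once, 30 bases before it. In the Mrc1 window GAGGAA was found 3 times, on the opposite strand at 180, 167 and 35 bases before the start. The Clec4g window held TATAAA once, on the opposite strand 31 bases before the start. None of the 4 motifs was found in the windows of Stab2 and Fcgr2b, and none of the 5 windows held AGATAA. Among 32851 promoter windows of the same length, 20.2% held CACCTG, 28.3% GAGGAA, 13.6% TATAAA and 11.2% AGATAA. A match is a description of these letters and not a site.

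Mrc1 was shared between ECs and Kupffer cells. Mrc1 (ENSMUSG00000026712, chromosome 2, 14229392 to 14332057, forward strand, 29 exons) had 1979 and 1557 CPM in the WT EC libraries and 2312 and 1903 in those labelled KO, which overlapped. In Kupffer cell libraries it had 657 and 996 CPM under the WT label and 662 and 823 under the KO label, all of them below each EC library. Levels of 20.3 to 87.7 CPM in HSC libraries and of 5.48 to 10.39 CPM in hepatocyte libraries were well below both.

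Clec4g had the highest ratio of ECs to Kupffer cells of the 9. Clec4g (ENSMUSG00000074491, chromosome 8, 3707064 to 3720651, reverse strand, 11 exons) had 7017 and 5417 CPM in the WT EC libraries and 9625 and 10114 in those labelled KO, without overlap. It ranked between 5 and 10 among all genes by reads in the EC libraries. In Kupffer cell libraries it had 158 and 136 CPM under the WT label and 286 and 235 under the KO label. Its HSC libraries held 90.7 to 211 CPM, which overlapped with Kupffer cells, and its hepatocyte libraries 26.6 to 42.7 CPM.

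Lyve1 and Fcgr2b had the same order of cell types as the stabilins, with a deeper drop from ECs to Kupffer cells. Lyve1 (ENSMUSG00000030787, chromosome 7, 110850607 to 110863239, reverse strand, 6 exons) had 838 and 692 CPM in the WT EC libraries and 465 and 432 in those labelled KO. It had 9.52 and 20.6 CPM in the WT Kupffer cell libraries, 37.1 and 12.2 in those labelled KO, 5.18 to 18.7 in HSC libraries and 1.89 to 7.501 in hepatocyte libraries. Kupffer cells and HSCs overlapped for Lyve1 and did not pass the test against each other (log2 fold change 0.78, SE 0.45, adjusted p = 0.183), nor did HSCs and hepatocytes (0.70, SE 0.47, adjusted p = 0.216). 

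Fcgr2b (ENSMUSG00000026656, chromosome 1, 170958617 to 170976547, reverse strand, 10 exons) had 3625 and 2879 CPM in the WT EC libraries and 5258 and 4609 in those labelled KO, without overlap. Its Kupffer cell libraries had 126 and 150.0 CPM under the WT label and 226 and 106 under the KO label. HSC libraries held 30.6 to 118 CPM and hepatocyte libraries 20.4 to 26.4 CPM, and these cell types did not pass the test against each other (log2 fold change 0.14, SE 0.26, adjusted p = 0.667). Of the 50-base words of its coding transcripts, 10.7% also occur in transcripts of other genes, Fcgr3 among them, against at most 1.17% for the other members. HTSeq lists reads without a unique alignment apart from the genes, so that reads from such words may be missing from the Fcgr2b count. B cells carry Fcgr2b too, and the 6 B cell markers summed to 223 to 690 CPM in the WT EC libraries and 139 to 154 CPM in those labelled KO, with none at 0.

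Msr1 was the member with more reads in Kupffer cells than in ECs in all 8 libraries. Msr1 (ENSMUSG00000025044, chromosome 8, 39581685 to 39642673, reverse strand, 11 exons) had 744 and 693 CPM in the WT Kupffer cell libraries and 768 and 783 in those labelled KO. It had 403 and 314 CPM in the WT EC libraries and 496 and 424 in those labelled KO, still above the 9.15 to 69.6 CPM of HSC libraries and the 3.44 to 10.2 CPM of hepatocyte libraries.

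Scarf1 had the order of cell types that Stab1 and Mrc1 had. Scarf1 (ENSMUSG00000038188, chromosome 11, 75513540 to 75526582, forward strand, 11 exons) had 376 and 268 CPM in the WT EC libraries and 574 and 569.6 in those labelled KO, without overlap. It had 129 and 99.5 CPM in the WT Kupffer cell libraries and 115 and 126 in those labelled KO, then 21.6 to 35.7 in HSC libraries and 3.77 to 6.82 in hepatocyte libraries. The 4 cell types did not overlap for Scarf1.

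Scarb1 differed from the rest in its spread over cell types. Scarb1 (ENSMUSG00000037936, chromosome 5, 125277087 to 125341094, reverse strand, 16 exons) had 361 and 287 CPM in the WT EC libraries and 516 and 633 in those labelled KO, without overlap. It had 439 and 514 CPM in the WT Kupffer cell libraries and 450.0 and 421 in those labelled KO. In HSC libraries it had 146 and 174 CPM under the KO label and 124 and 119.6 under the WT label. In hepatocyte libraries, 247 and 369.7 CPM under the WT label and 224 and 321 under the KO label were found, which overlapped with the ECs. Hepatocytes use Scarb1 for uptake of cholesterol from high density lipoprotein, and it was the only member whose hepatocyte libraries lay above all HSC libraries.

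Levels can be compared between the genes only per exonic length. In the WT EC libraries, Clec4g had 2525 ± 459.6 CPM per kb of the union of its exons (SD, n = 2), which was rank 13 of 47224 genes. Fcgr2b followed with 562 ± 91.2 and Stab2 with 441 ± 19.7. Mrc1 with 278 ± 46.9, Lyve1 with 262 ± 35.4 and Stab1 with 196 ± 15.0 came next, of which Mrc1 and Lyve1 lay within each other's SD. Scarf1 had 111 ± 26.5, Msr1 56.5 ± 9.83 and Scarb1 38.1 ± 6.17 CPM per kb. In the WT Kupffer cell libraries the order by exon union was led by Mrc1 with 130 ± 37.6 and Msr1 with 113 ± 5.71, which did not differ beyond their SD, then Clec4g with 59.7 ± 6.16 and Scarb1 with 56.1 ± 6.24 CPM per kb. With the longest coding transcript as length, the level of 5 members moved by less than 1.5 times, while Msr1 had 98.6, Fcgr2b 918, Clec4g 4314 and Scarb1 128 CPM per kb in WT ECs, so that Scarb1 moved from the last place to the seventh. In WT Kupffer cells the same choice gave 198 for Msr1, 189 for Scarb1, 154 for Mrc1 and 102 CPM per kb for Clec4g, so that Scarb1 came before Mrc1.

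**Figure D2:**
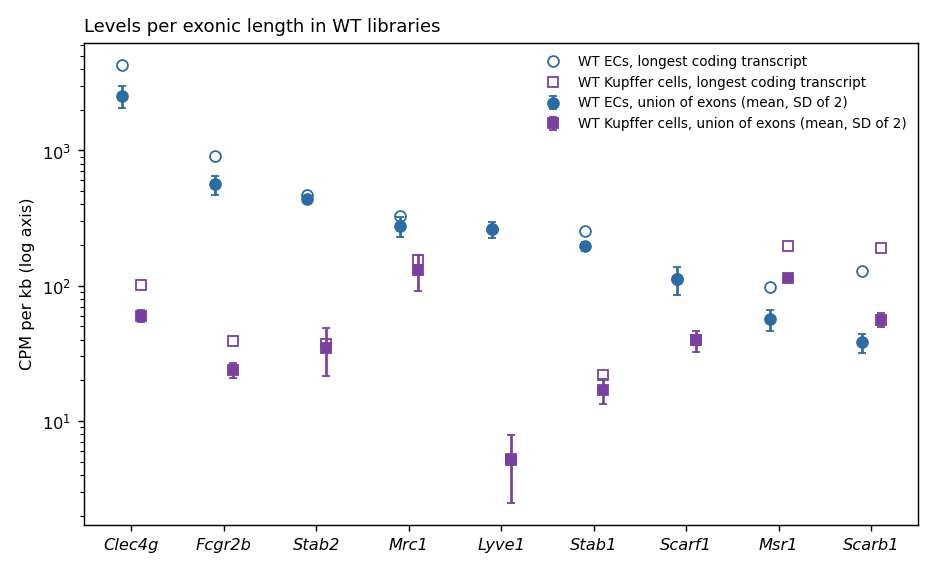
CPM per kb (log axis) of the 9 receptors in WT ECs (blue circles) and WT Kupffer cells (purple squares), with filled symbols for the union of exons (mean and SD of 2 libraries) and open symbols for the longest coding transcript. By exon union, Clec4g leads in ECs at 2525, and Mrc1 and Msr1 lead in Kupffer cells at 130 and 113.

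Of the 9 receptors, 6 were higher in ECs than in Kupffer cells past an adjusted p of 0.05 in a fit over all 16 libraries, and none was lower. Of all 17214 genes tested, 32% differed, with 17.5% higher and 14.5% lower in ECs. The log2 fold change was 5.00 for Clec4g (SE 0.24), 4.63 for Lyve1 (SE 0.51), 4.41 for Fcgr2b (SE 0.29), 3.28 for Stab2 (SE 0.29), 2.65 for Stab1 (SE 0.39) and 1.55 for Scarf1 (SE 0.21), with a highest adjusted p of 0.000244 for Stab1. The median over the 9 was 2.65, against 0.13 over all genes. The other 3 did not pass, namely Mrc1 with 0.99 (95% confidence interval 0.15 to 1.84, adjusted p = 0.0704), Msr1 with -1.20 (-2.24 to -0.16, adjusted p = 0.0739) and Scarb1 with -0.39 (-0.87 to 0.10, adjusted p = 0.210). When the 8 EC and Kupffer cell libraries were fitted alone, with 32.4% of 15917 genes called, Mrc1 (0.94, adjusted p = 0.0101) and Msr1 (-1.25, adjusted p = 0.00146) passed as well. With WT libraries alone, fewer genes were called over the whole table (2762 of 15979), and 5 members passed. Scarf1 no longer did in this fit (1.11, adjusted p = 0.0575).

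The members fell along a gradient in the share of their EC level that Kupffer cell libraries held. As a percentage of the mean CPM over the 4 EC libraries, the 4 Kupffer cell libraries held 169% to 192% for Msr1 and 93.6% to 114% for Scarb1. They held 33.9% to 51.4% for Mrc1 and 22.3% to 28.8% for Scarf1. Stab1 followed with 8.74% to 16.9% and Stab2 with 5.56% to 9.79%. Lyve1 with 1.57% to 6.12%, Fcgr2b with 2.58% to 5.53% and Clec4g with 1.70% to 3.55% lay lowest. For comparison, the medians of the 10 EC markers in these libraries were 1.82% and 3.16% under the WT label and 4.81% and 3.81% under the KO label, and no EC marker other than Cdh5 exceeded 7.204%. Lyve1, Fcgr2b and Clec4g thus lay at the level of the EC markers, Stab2 overlapped with their highest values, and Stab1, Scarf1, Mrc1, Scarb1 and Msr1 lay above all of them but Cdh5. The part of EC RNA in the Kupffer cell levels was not tested. In the other direction, EC libraries held 42.1% to 66.4% of the mean Kupffer cell level of Msr1, while the 10 Kupffer cell markers did not exceed 3.79%.

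**Figure D3:**
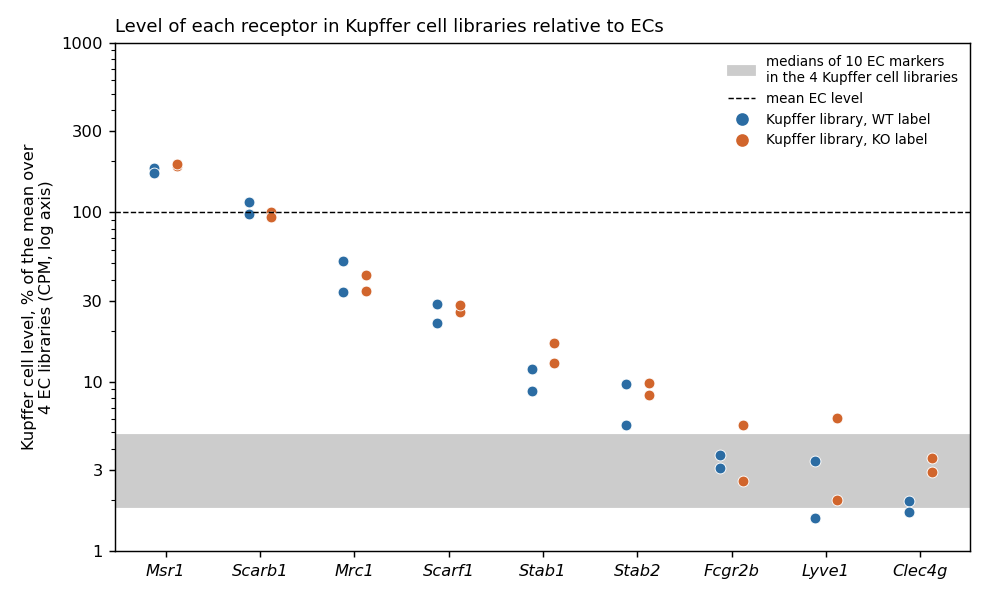
Level of each receptor in the 4 Kupffer cell libraries as a percentage of its mean CPM over the 4 EC libraries (log axis), with the WT label in blue, the KO label in orange, a dashed line at the mean EC level and a grey band over the medians of 10 EC markers in these libraries (1.82% to 4.81%). Msr1 lies above the EC level at 169% to 192%, and Clec4g lies lowest at 1.70% to 3.55%.

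Within a library, the ratio of Msr1 to Mrc1 set ECs apart from the other cell types. Per 100 Mrc1 reads there were 20.3 and 20.2 Msr1 reads in the WT EC libraries and 21.4 and 22.3 in those labelled KO. Kupffer cell libraries had 113 and 69.6 under the WT label and 116 and 95.2 under the KO label. All 4 EC libraries lay below all 4 Kupffer cell libraries in this ratio, which needs no scaling between libraries. HSC libraries (38.8 to 79.3) and hepatocyte libraries (53.1 to 98.2) overlapped with Kupffer cells. Kupffer cell markers had medians of 0.987% to 5.21% of their Kupffer cell level in HSC libraries and 0.291% to 0.809% in hepatocyte libraries. The part of Kupffer cell RNA in the ratios of these libraries was not tested. No test was made on these ratios.

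All 9 receptors were higher in ECs than in HSCs (26% of genes differed), with log2 fold changes from 1.38 for Scarb1 (SE 0.23) to 5.93 for Fcgr2b (SE 0.31). Against hepatocytes, 8 were higher in ECs (58.7% of genes differed), from 4.83 for Msr1 (SE 0.56) to 7.07 for Stab1 (SE 0.48). Scarb1 was lower in ECs after TMM normalization (-0.81, SE 0.22, adjusted p = 0.00830), but with library totals alone its log2 fold change was 0.57, in the other direction, as in CPM. The sign for Scarb1 thus depended on the scaling. The median over all genes of this comparison was 0.54 after TMM normalization and 1.85 with library totals alone. Kupffer cells exceeded HSCs in 8 members (42.9% of genes differed), Lyve1 being the exception, and hepatocytes in 8 members (55.6% of genes differed), Scarb1 being the exception (-0.42, SE 0.22, adjusted p = 0.128, and 0.65 with library totals alone). Between HSCs and hepatocytes 6 passed (58.4% of genes differed). Stab1, Mrc1, Msr1, Clec4g and Scarf1 were higher in HSCs by log2 fold changes of 0.82 to 1.53, against a median of 0.60 over all genes, and Scarb1 was lower (-2.19, SE 0.23). Between Kupffer cells and hepatocytes the median of all genes was 0.24. Several calls changed when 1 library was left out, some with little change in the estimate. Such a fit leaves 1 library in the group. Scarb1 between ECs and hepatocytes did not pass without WT EC library 38 (-0.48), KO EC library 6 (-0.51), WT hepatocyte library 33 (-0.41) or KO hepatocyte library 41 (-0.41). Clec4g between Kupffer cells and HSCs (0.65) did not pass without Kupffer cell library 31 (0.53) or 27 (0.59) or HSC library 8 (0.65), 20 (0.63) or 40 (0.50). Msr1 between HSCs and hepatocytes (1.31) did not pass without HSC library 20 (1.23) or 32 (0.50) or hepatocyte library 33 (1.38) or 41 (1.498), while Lyve1 passed without HSC library 8 (1.24) or hepatocyte library 33 (1.58). EC markers had medians of 1.25% to 5.10% of their EC level in HSC libraries and 0.206% to 0.673% in hepatocyte libraries. Stab1, Stab2, Mrc1, Lyve1, Fcgr2b and Clec4g had means of 1.52% to 2.39% of their EC level in HSC libraries and 0.302% to 0.899% in hepatocyte libraries, and the part of EC RNA in these was not tested.

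In ECs, none of the 9 receptors passed an adjusted p of 0.05 between the KO and WT labels in edgeR's quasi-likelihood test, while 305 of 14631 genes did (2.08%), 17 higher and 288 lower. The count over all genes rested on single libraries, with 3 called without KO library 46, 58 without KO library 6, 688 without WT library 34 and 332 without WT library 38, and none of the 9 passed in any of these. Of the members, 3 had an unadjusted p under 0.05, as had 15% of all genes tested. Lyve1 had a log2 fold change of -0.77 (95% confidence interval -1.35 to -0.20, adjusted p = 0.211), Scarf1 of 0.83 (0.19 to 1.46, adjusted p = 0.224) and Scarb1 of 0.83 (0.19 to 1.47, adjusted p = 0.226). With DESeq2, which called 983 of 14347 genes (6.85%), these 3 passed, with an adjusted p of 0.0243 for Lyve1, 0.0399 for Scarf1 and 0.0410 for Scarb1.

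The other 6 did not pass with either tool. Stab1 had a log2 fold change of -0.58 (-1.18 to 0.02, adjusted p = 0.354), Clec4g of 0.67 (-0.11 to 1.45, adjusted p = 0.409) and Fcgr2b of 0.60 (-0.11 to 1.30, adjusted p = 0.413). Msr1 had 0.35 (-0.23 to 0.94, adjusted p = 0.566), Mrc1 0.25 (-0.42 to 0.91, adjusted p = 0.742) and Stab2 0.10 (-0.56 to 0.75, adjusted p = 0.912). Their intervals reach changes of more than 1.5-fold in at least 1 direction. The estimate was above 0 in 7 members and below 0 in Stab1 and Lyve1, with a median of 0.35 against -0.01 over all genes. In TMM-normalized CPM, the labels did not overlap in 8 members, Mrc1 being the exception, against 48.5% of all genes tested.

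**Figure D4:**
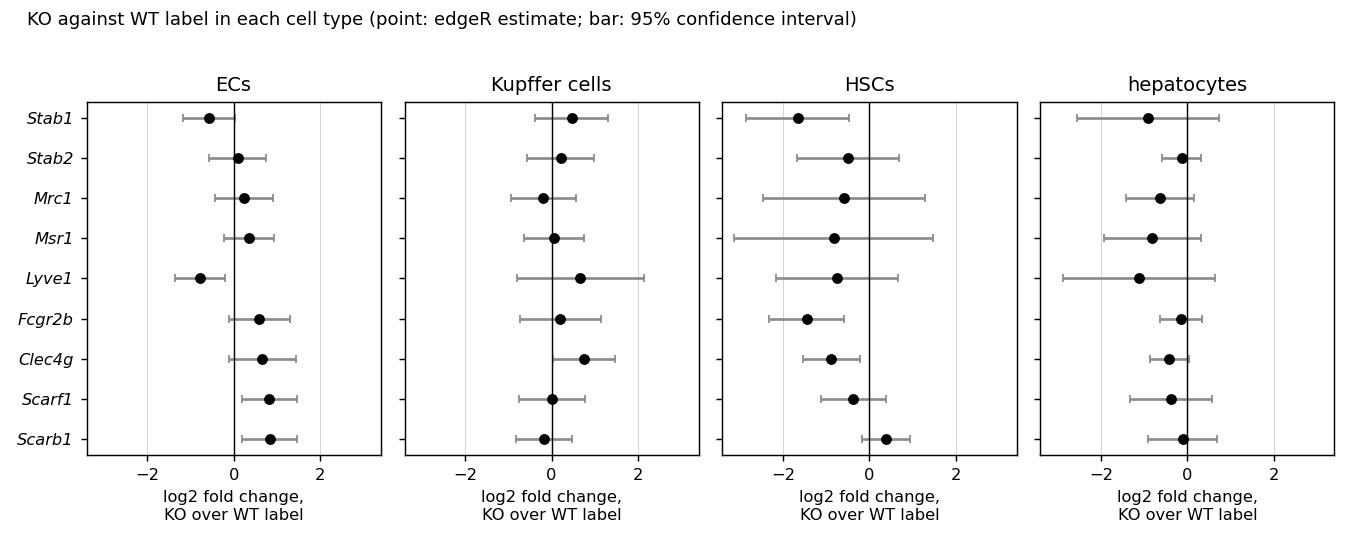
log2 fold change of the libraries labelled KO over those labelled WT for the 9 receptors in each cell type (edgeR estimate as a point, 95% confidence interval as a bar, 2 libraries a label). In ECs Stab1 and Lyve1 lie below 0 at -0.58 and -0.77 and the other 7 above it, and in hepatocytes all 9 lie below 0.

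Other RNA also differed between the EC labels, and its part in these values was not tested. Hepatocyte markers summed to 10215 to 20537 CPM under the WT label and 1594 to 2433 under the KO label, and Kupffer cell markers to 541 to 889 against 1182 to 1254. HSC markers (1404 to 1684 against 597 to 871), B cell, T and NK cell (71.6 to 125 against 28.6 to 32.7), monocyte and neutrophil (38.4 to 114 against 27.5 to 35.1) and cholangiocyte markers (265 and 265 against 130 to 207) were each lower under the KO label, without overlap. The sum of the lymphatic EC list (899 to 997 against 681 to 821, for 4 of 5 genes found) was lower too, without overlap. This list shares Flt4 with the EC markers, at 655 to 953 CPM in the EC libraries, so that its sum does not measure lymphatic ECs alone. EC markers (8136 to 9751 against 8050 to 9103) and dendritic cell markers (186 to 272 against 182 to 245) overlapped. At most 1 marker of a list was at 0 in an EC library. With the 857 hepatocyte-enriched genes left out of the table, the log2 fold change was -0.82 for Lyve1, 0.78 for Scarf1 and 0.79 for Scarb1, and none of the 9 passed, as none of 13798 genes did in this setting (1665 had an unadjusted p under 0.05).

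The ratio of reads between members within a library differed between the EC labels. Per 100 Stab2 reads there were 51.0 and 53.4 Stab1 reads in the WT libraries and 32.8 and 32.5 in those labelled KO. Per 100 Stab2 reads there were 22.4 and 17.4 Lyve1 reads in the WT libraries and 10.6 and 11.0 in those labelled KO. Lyve1 reads per 100 Clec4g reads were 11.9 and 12.8 under the WT label and 4.83 and 4.27 under the KO label. The labels did not overlap in any of these 3 ratios, and they overlapped in all 3 in Kupffer cell libraries. In HSC libraries Stab1 reads per 100 Stab2 reads were 58.1 and 49.3 under the WT label and 30.7 and 21.8 under the KO label, also without overlap. Both Lyve1 ratios overlapped between the labels in HSC libraries, and all 3 ratios overlapped in hepatocyte libraries. Since these ratios compare genes within the library, they do not depend on its total or its TMM factor. They were chosen with the estimates known and carry no test.

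**Figure D5:**
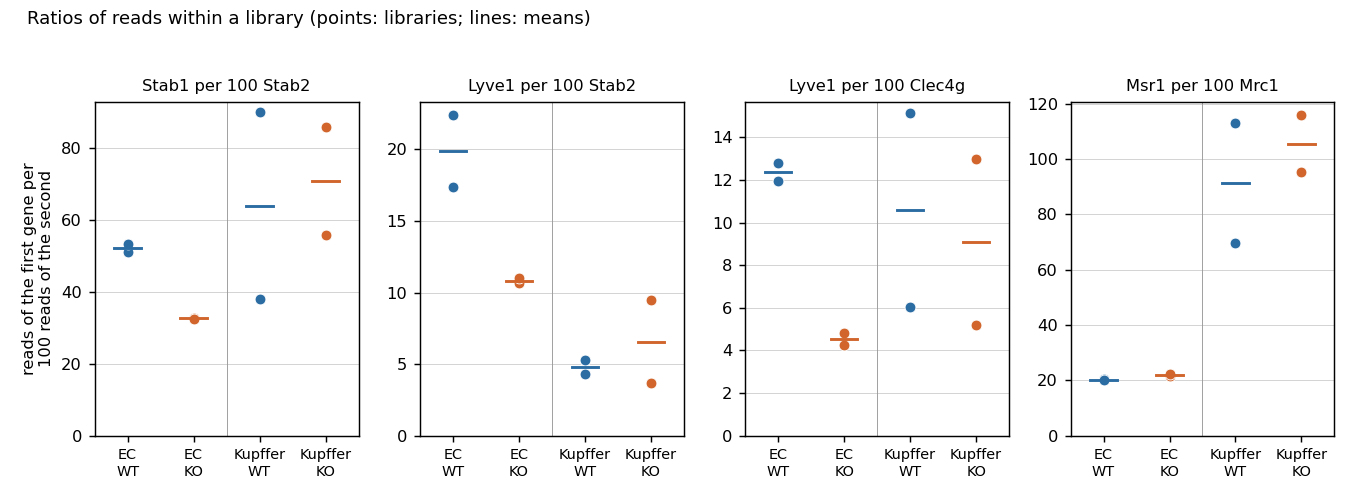
Reads of the first gene per 100 reads of the second in each EC and Kupffer cell library (points) with the mean of 2 libraries (lines), WT labels in blue and KO labels in orange. In ECs, Stab1 per 100 Stab2 reads is 51.0 and 53.4 under the WT label and 32.8 and 32.5 under the KO label, while Msr1 per 100 Mrc1 reads separates ECs (20.2 to 22.3) from Kupffer cells (69.6 to 116).

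In Kupffer cells none of the members passed with edgeR or with DESeq2. Of all genes, edgeR called none of 13867 (0%) and DESeq2 72. Clec4g was the single member with an unadjusted p under 0.05 (5.09% of all genes), with a log2 fold change of 0.76 (95% confidence interval 0.04 to 1.47, adjusted p = 0.933). The labels did not overlap in normalized CPM in 2 members, Clec4g and Scarb1 (37.3% of all genes). The 10 EC markers together had 288 to 434 CPM in the Kupffer cell libraries labelled WT and 459 to 556 in those labelled KO, which also did not overlap. Hepatocyte markers (5032 to 7328 under the WT and 8268 to 9859 under the KO label) and Kupffer cell markers (51747 to 56229 and 49174 to 50227) did not overlap either, and the part of these in the values of Clec4g and Scarb1 was not tested. Msr1 had 0.05 (-0.64 to 0.74) and Mrc1 -0.19 (-0.95 to 0.57), the 2 members of the highest level per length of the exon union in these cells.

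In HSCs none passed with edgeR, as none of 14390 genes did (0%), and 3 had an unadjusted p under 0.05 (8.75% of all genes). These were Fcgr2b with a log2 fold change of -1.46 (SE 0.34, adjusted p = 0.356), Stab1 with -1.66 (SE 0.48, adjusted p = 0.430) and Clec4g with -0.88 (SE 0.26, adjusted p = 0.436). Fcgr2b and Stab1 passed with DESeq2 (adjusted p = 0.0137 and 0.0439, with 2.82% of genes called) and without a filter on low counts (adjusted p = 0.000321 and 0.000465, with 2.7% of 24592 genes called). The estimate was below 0 in 8 members, Scarb1 being the exception, and the labels did not overlap in 4 (40.5% of all genes). In the HSC libraries the EC markers summed to 232 to 452 CPM under the WT label and 185 to 193 under the KO label, and the hepatocyte markers to 2897 to 6809 and 484 to 1294, both without overlap. Of the HSC libraries, WT library 32 had the highest levels of Stab1 (73.4 CPM) and Fcgr2b (118 CPM). Its EC markers had a median of 5.10% of their EC level against 1.25% to 1.76% in the other 3 HSC libraries. Without this library the log2 fold change was -0.94 for Fcgr2b and -0.90 for Stab1, and it turned to values above 0 for Msr1 (1.30), Mrc1 (0.67) and Stab2 (0.10). Kupffer cell markers had medians of 4.28% and 0.987% of their Kupffer cell level in the WT libraries and 1.10% and 5.21% in those labelled KO. The part of RNA of these cell types in the HSC values was not tested.

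In hepatocytes none passed with edgeR or with DESeq2. Of all genes, edgeR called none of 11548 (0%) and DESeq2 27, and no member had an unadjusted p under 0.05 (7.11% of all genes). All 9 estimates were below 0, from -0.11 for Scarb1 to -1.12 for Lyve1, with a median of -0.42 against -0.02 over all genes, and the labels did not overlap in 6 members (40.8% of all genes). The 10 EC markers summed to 45.2 to 49.8 CPM under the WT label and 17.5 to 32.6 under the KO label in these libraries, and the Kupffer cell markers to 249 to 431 and 159 to 220. Their part in these values was not tested.

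The difference of the KO label's effect between ECs and Kupffer cells passed for none of the 9 with edgeR, against 2.07% of 17214 genes. An unadjusted p under 0.05 was found for 1 member and for 2403 of all genes. The smallest adjusted p was that of Scarb1 (0.99, 95% confidence interval 0.02 to 1.96, adjusted p = 0.348), and Lyve1 had -1.49 (-3.43 to 0.45, adjusted p = 0.504). None passed in the other 5 pairs of cell types either, where 0.0349% (ECs and HSCs), 0.0697% (ECs and hepatocytes), 0.593% (Kupffer cells and HSCs), 0.0116% (Kupffer cells and hepatocytes) and 0.0755% (HSCs and hepatocytes) of genes did. There 3, 2, 3, 1 and 1 members, in this order, had an unadjusted p under 0.05. Of the 17214 genes, 835, 1570, 2018, 1408 and 1232 had such a p in these pairs. In those pairs Clec4g came nearest, with 1.66 between Kupffer cells and HSCs (adjusted p = 0.0863). The comparisons share libraries, so that their values are not independent.

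Over the 16 libraries, which fall into 4 cell types, most members followed each other, while Scarb1 did not and Msr1, the highest in Kupffer cells, did so less closely. Pearson's r of log2 CPM between 2 of the other 8 members was 0.554 for Msr1 with Lyve1 and 0.985 for Fcgr2b with Clec4g, its lowest and highest values. With Scarb1, r was -0.0126 to 0.187. Among 11216 genes compared, the one most like Stab1 was Pecam1 (r = 0.980), an adhesion molecule of ECs, followed by Scarf1 and Inhbb. Stab2 was most like Dnase1l3 (0.982), a secreted DNase, followed by Fcgr2b and Pecam1. Fcgr2b was most like Oit3 (0.994), followed by Cd300lg and Cldn5, and Clec4g most like Gpihbp1 (0.994), which carries lipoprotein lipase in capillaries, followed by Oit3 and Robo4. Lyve1 was most like Id4 (0.976), followed by F8 and Flt4. Scarf1 was most like Tmem106a (0.982), followed by Icam2 and Elf1. Mrc1 was most like Gatm (0.987), followed by Cdh5 and Plekho1, and Msr1 most like Nrros (0.992), followed by Il1a and Clec1b. Scarb1 was most like Gabarap (0.955), followed by Nsa2 and Cox7a2l.

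Other genes of the pathway showed where ECs and Kupffer cells parted. Of 45 other scavenger and endocytic receptors, 42 were tested, of which 5 were higher in ECs and 23 lower (17.5% and 14.5% of all genes were), with a median log2 fold change of -1.25 against 0.13 over all genes. Among those past the threshold, here and in the next lists, the highest were Pla2r1 (5.38), Cd209b (2.89) and Sort1 (2.84), and the lowest Cd209g (-8.05), Marco (-6.58) and Cd163 (-6.48). Marco and Cd163 are scavenger receptors of macrophages, with means of 2688 ± 4318 and 673 ± 297 CPM (SD, n = 4) in Kupffer cell libraries against 22.5 ± 7.84 and 9.17 ± 3.00 in ECs. Marco thus varied between the Kupffer cell libraries by more than its mean, and Cd209g had 8.04 ± 10.7 CPM there.

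Of 40 genes of the clathrin coat and of endocytic trafficking, 39 were tested. Of these, 13 were higher in ECs and 7 lower (17.5% and 14.5% of all genes were), the lower ones near that share. The median was 0.35, against 0.13 over all genes. The highest were Ehd3 (4.88), a recycling ATPase with 6129 ± 913 CPM in ECs and 176 ± 99.3 in Kupffer cells, and the caveolar genes Cav2 (3.91) and Cavin1 (3.23). Its paralogs Ehd1 (-3.003) and Ehd4 (-1.36) were the lowest, together with the scaffold gene Itsn1 (-1.19).

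Of 36 lysosomal hydrolases, all tested, 5 were higher in ECs and 20 lower (17.5% and 14.5% of all genes were), with a median of -1.41. The hyaluronidases Hyal2 (3.43) and Hyal1 (1.84), which degrade the ligand of Stab2 and Lyve1, and the protease Ctsl (1.43) were the highest, and the proteases Ctss (-5.69) and Ctsc (-5.62) and the phosphatase Acp5 (-5.13) the lowest. Of 12 ligands and adaptors of the members, 11 were tested, and Sparc (4.36), a matrix protein that Stab1 takes up, was higher in ECs, while Gdf15 (-2.76), Tgfbi (-2.37) and Apoe (-1.62) were lower.

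Between the EC labels, the coat and trafficking genes (0 of 38) and the hydrolases (0 of 36) had no member past the threshold, with 1 and 7 at an unadjusted p under 0.05 in edgeR. Of all genes in ECs, 2.08% passed and 15% had such a p. Of the coat and trafficking genes, Numb (-0.76, adjusted p = 0.179), an endocytic adaptor, and Cav1 (0.70) had the smallest p, and the hydrolase Acp5 had -1.33 (adjusted p = 0.117). Of the other receptors, 3 of 37 fell under the KO label, namely Asgr1 (-2.54, adjusted p = 0.0290), Asgr2 (-3.32, adjusted p = 0.0290) and Lrp1 (-1.47, adjusted p = 0.0379). Asgr1 and Asgr2 form the asialoglycoprotein receptor of hepatocytes and had means of 819 and 97.1 CPM in hepatocyte libraries against 70.3 and 12.5 in ECs. Lrp1 had a mean of 43.4 CPM in ECs against 888 in HSC, 692 in Kupffer cell and 126 in hepatocyte libraries. In the EC libraries HSC and hepatocyte markers were lower and Kupffer cell markers higher under the KO label, as given above. The part of their RNA in the Lrp1 values was not tested. Of 10 ligands tested, Apoa1 fell (-2.93, adjusted p = 0.0300), with a mean of 18668 CPM in hepatocyte libraries and 1889 in ECs. The share of hepatocyte-enriched reads given above moved with these genes, and its part was not tested. An unadjusted p under 0.05 was found for 12 of the other receptors and 5 of the ligands and adaptors, and the medians were -0.03 and -1.01, against -0.01 over all genes. The effect of the KO label differed between ECs and Kupffer cells for Asgr2 (-3.76, adjusted p = 0.0200) and Apoa1 (-3.50, adjusted p = 0.0437), and for none of the coat and trafficking genes or hydrolases.

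In the other 3 cell types no gene of the 4 lists passed between the labels with edgeR. In Kupffer cells, 6 of the other receptors, 1 of the ligands and adaptors and none of the coat and trafficking genes or hydrolases had an unadjusted p under 0.05 (5.09% of all genes). The smallest p of the trafficking genes, hydrolases and ligands belonged to Cavin1 (1.31) and Picalm (0.59), to Gla (0.95) and Hyal2 (-0.66), and to Gdf15 (0.94) and Postn (0.84), all at an adjusted p of 0.933. Of the receptors, Scara5 was at 0 in both WT libraries and had 2.71 ± 2.69 CPM under the KO label.

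In HSCs 5, 4, 2 and 1 genes of the receptors, trafficking genes, hydrolases and ligands, of 39, 39, 36 and 10 tested, had an unadjusted p under 0.05 (8.75% of all genes). Among them or next to them were the receptor gene Asgr1 (-3.04), the trafficking genes Numb (-1.22, adjusted p = 0.394) and Cav2 (-1.48), the hydrolase Manba (-1.34), and Apoa1 (-2.28) and Has1 (-1.78) of the ligands. Asgr1 and Apoa1 are hepatocyte genes, and the hepatocyte markers, which differed between the labels of the HSC libraries, are given above. In hepatocytes 6, 1, 4 and 1 genes, of 33, 36, 36 and 10 tested, had such a p (7.11% of all genes). These lists were led by Mertk (-1.36) and Cd163 (-3.60), Ehd4 (1.38) and Rab4a (0.54), Ctss (-0.79) and Neu1 (0.68), and Reln (-1.67) and Tgfbi (-0.63), with a smallest adjusted p of 0.700. Ctss and Cd163 are genes of macrophages, and the Kupffer cell markers, which differed between the labels of these libraries, are given above.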

How the data were processed

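RNA sequencing was examined in 16 libraries of 4 hepatic cell types. The authors deposited raw counts, the number of reads per Ensembl gene from HTSeq 0.9.1, without normalization. The submitters' processing notes name GRCm38, Trimmomatic 0.32, HISAT2 2.1.0 and edgeR. The strand setting is not given in the sources used here, and the series and its samples name different library kits (Smart-seq2 and TruSeq stranded). The 5 summary lines of each table were left out. Positions and lengths are from GENCODE mouse release 21, which holds 98.9% of the identifiers. Exons of Stab1, Stab2, Fcgr2b and Clec4g overlap a gene on the opposite strand by 112 to 155 bases, and without strand its reads cannot be told apart.

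The main test was edgeR 4.0.16 in R 4.3.3 (filterByExpr, TMM, glmQLFit, glmQLFTest, 1 mean per group), with Benjamini-Hochberg adjustment over all genes tested and a threshold of 0.05. KO and WT labels were compared within a cell type (2 and 2 libraries), and cell types and interactions in 1 fit of 16 libraries. Depth was 12872706 to 15690506 reads, and intervals and the floor of 3 counts cover counting error or the spread of 2 libraries only. The mean chi-square per gene between replicates was 29.6 to 109, above sampling noise. The fits were tested on simulated data with 200 changed genes. Tried as alternatives were RLE size factors, DESeq2 1.42.0, library totals, 2 filters on low counts, the table without 857 hepatocyte-enriched genes (at least 10 CPM in WT hepatocytes and 8 times the WT Kupffer cell level), other sets of libraries, another gene length and leaving out each library.

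Named were all 9 members, the 3 genes most alike to each over 16 libraries (Pearson's r of log2 CPM with a prior count of 2, at least 10 CPM in 1 group), list genes past the threshold (otherwise the 2 with the smallest p), and for ECs against Kupffer cells the 3 highest and 3 lowest of each list past the threshold. Some genes that this rule names are not reported here. The members, lists and tests were chosen with earlier results of these data known. Figures used matplotlib 3.10.9 under Python 3.11.15.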

Additional observations from a re-analysis of the deposited data

How the results depend on the processing

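The count of members past the threshold between the KO and WT labels moved from 0 to 3 in ECs with DESeq2, and from 0 to 2 in HSCs with DESeq2 and to 2 without a filter on low counts. The cause was not tested. It stayed at 0 in each other planned setting and without any 1 library. Between ECs and Kupffer cells 6 members passed, and 5 to 8 did over the settings. The comparisons of the other cell types were run under alternatives chosen after seeing the data, and their counts stayed within 1.5 times. With library totals alone Scarb1 turned to 0.57 between ECs and hepatocytes and to 0.65 between Kupffer cells and hepatocytes.

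None of the KO against WT values that changed sign without 1 library had passed the test. In Kupffer cells they ranged from -0.10 to 0.22 for Msr1, -0.40 to 0.61 for Fcgr2b, -0.41 to 0.018 for Mrc1, -0.29 to 1.23 for Lyve1, -0.048 to 0.54 for Stab2 and -0.25 to 0.34 for Scarf1. In HSCs they ranged from -1.66 to 1.30 for Msr1, -1.55 to 0.67 for Mrc1 and -1.11 to 0.10 for Stab2, and in hepatocytes from -1.78 to 0.11 for Lyve1, -0.46 to 0.27 for Scarb1 and -1.56 to 0.36 for Stab1. The difference of the label's effect between ECs and Kupffer cells ranged from -0.082 to 1.06 for Fcgr2b, -0.37 to 0.23 for Stab2 and -0.27 to 0.27 for Clec4g. Scarb1 between Kupffer cells and hepatocytes ranged from -0.39 to 0.018, and Stab2 between HSCs and hepatocytes from -0.016 to 0.53. Leaving out 1 library leaves 1 in its group, which is then assumed to vary like the others.

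No paired analysis was possible because no replicate number occurs in more than 1 group.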
